A study of Homo sapiens with 12 samples.

Results

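The fucosyltransferases are the enzymes that attach the sugar fucose to glycans and proteins, and 10 of them were followed here across pancreatic cancer cells sorted by the antibody GCTM-5. Members were the genes of the deposited expression table with the symbols FUT1, FUT2, FUT3, FUT4, FUT5, FUT6, FUT7, FUT8, FUT10 and FUT11, and all 10 were found among the 23346 genes listed. RNA-seq had been carried out on SW1990 and CFPAC-1, which are established lines of human pancreatic adenocarcinoma cells grown as monolayers with serum and given no other treatment. GCTM-5 is a mouse antibody to a glycoprotein complex related to the sialylated Lewis antigens that serve as pancreatic cancer markers. Living cells were stained with it, and gates took only the strongly positive and the negative cells of each line, which left out those in between. The 4 groups were GCTM-5 negative SW1990, GCTM-5 positive SW1990, GCTM-5 negative CFPAC-1 and GCTM-5 positive CFPAC-1, with 3 replicate libraries each. The study's methods state that the samples came from 3 sorts. The labels number the replicates but do not name separate cultures, so the spread between them may be in part technical.

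Every fucosyltransferase takes fucose from the activated donor GDP-fucose, and the members differ in where they put it. FUT1 and FUT2 join it by an alpha-1,2 linkage to galactose and make the H antigen, the precursor of the A and B blood groups. FUT3, FUT5 and FUT6 complete the Lewis antigens, FUT3 being the Lewis enzyme that can use the alpha-1,4 linkage needed for Lewis a and its sialylated form, while FUT4 and FUT7 make Lewis X and sialyl Lewis X. FUT8 puts core fucose on the innermost sugar of N-glycans, and FUT10 and FUT11 are distant relatives that act in the endoplasmic reticulum.

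The values were RPKM, read counts scaled to the length of the gene and the depth of the library, so that levels can be set side by side between genes. Libraries held 9969697 reads in CFPAC-1 positive replicate 3 to 26159330 reads in CFPAC-1 positive replicate 1. Tests were made with limma on log2(RPKM + 0.1) for the 16236 genes whose mean RPKM over the 12 libraries was at least 0.1, and adjusted p-values were taken over all of them. Of the members, 8 passed this filter, and FUT5 and FUT7 did not. A change is called here at an adjusted p under 0.05, and a fold change given as log2 is on the log2(RPKM + 0.1) scale, which understates the change of genes with low values. An exact permutation test of 3 libraries against 3 cannot give a p below 0.1, so no such test was used.

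FUT8 was the most abundant fucosyltransferase RNA in all 4 groups. Its mean was 69.2 RPKM ± 4.21 (SD, n = 3) in negative SW1990, 64.6 ± 3.08 in positive SW1990, 109.5 ± 2.50 in negative CFPAC-1 and 92.2 ± 5.19 in positive CFPAC-1. At least 93.5% of the genes past the filter lay below it in each group. In negative SW1990 the order then ran FUT4 (10.5 RPKM ± 0.960), FUT11 (8.85 ± 0.666), FUT10 (5.97 ± 0.561), FUT1 (2.54 ± 0.291), FUT2 (1.50 ± 0.172) and FUT3 (1.13 ± 0.616), and of these neighbours only FUT2 and FUT3 overlapped between libraries. In positive SW1990 FUT3 moved up to follow FUT8, at 29.3 RPKM ± 8.30, and FUT4, FUT2, FUT1 and FUT11 came after it between 12.4 and 7.36 RPKM, each overlapping the next. In CFPAC-1 FUT4 and FUT11 followed FUT8 in both populations, with FUT11 ahead at 16.2 RPKM ± 1.10 in negative cells and FUT4 ahead at 22.7 ± 3.05 in positive cells. FUT5, FUT6 and FUT7 were the lowest 3 members in every group, with group means of at most 0.569 RPKM.

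**Figure D1:**
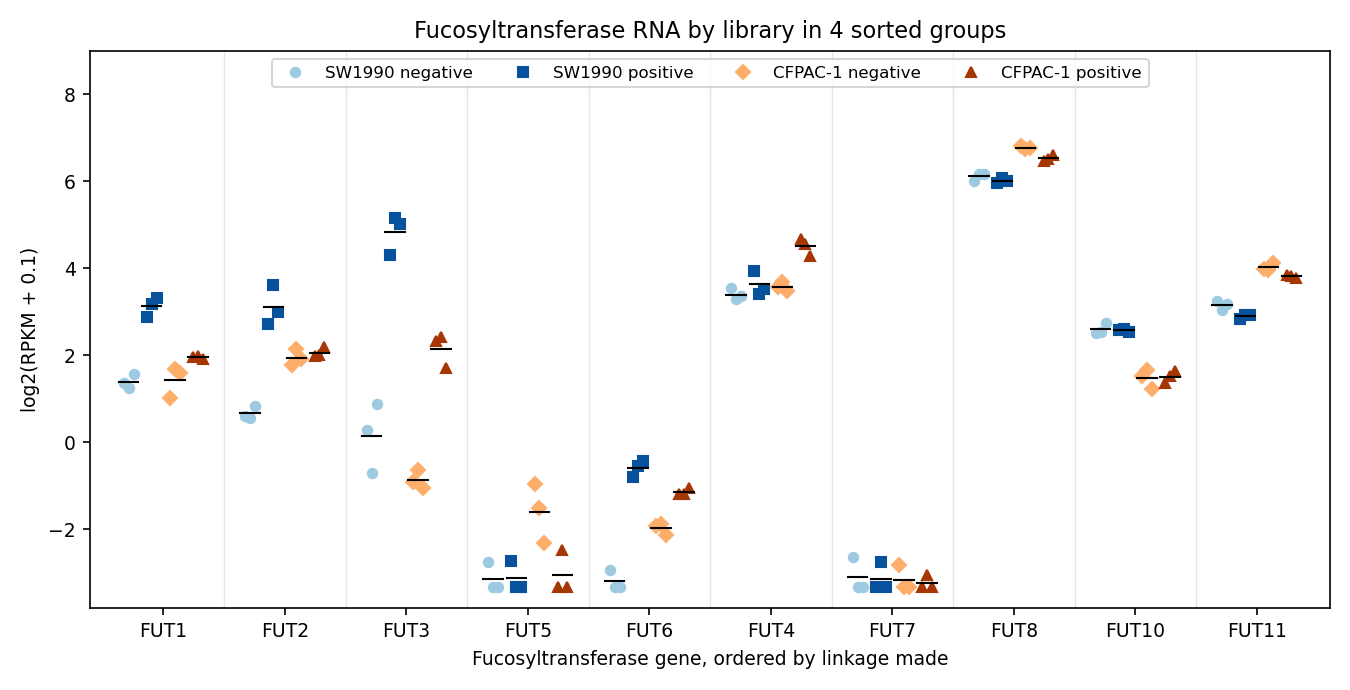
Level of each of the 10 fucosyltransferases as log2(RPKM + 0.1) on the vertical axis, with 1 symbol for each of the 12 libraries and a black bar for the mean of the 3 libraries of a group. FUT8 stands highest in all groups, FUT1, FUT2, FUT3 and FUT6 stand apart between positive and negative SW1990, and FUT5 and FUT7 lie near the floor at which no read was counted.

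Among the 8 members tested in SW1990, 4 rose in GCTM-5 positive cells (FUT1, FUT2, FUT3 and FUT6) and 1 fell (FUT11). Of all 16236 genes tested in SW1990, 11.3% rose and 16.9% fell, or 28.2% in either direction. In CFPAC-1, 4 members rose (FUT1, FUT3, FUT4 and FUT6) and 1 fell (FUT8), where 22.3% of all genes rose and 14.2% fell, or 36.5% in either direction. The median change of the 8 members was 0.99 on the log2 scale in SW1990, against -0.04 for all genes, and 0.32 in CFPAC-1, against 0.05. The median in SW1990 lies between FUT4 and FUT1 and does not depend on the value given to FUT6, which had almost no reads in negative cells. The thresholds stated for the study, over 2-fold with an unadjusted p under 0.01, were applied to the values fitted here. At these, 4 members passed in SW1990 (12.1% of all genes) and 1, FUT3, in CFPAC-1 (9.78%). The added 0.1 lowers the fold of FUT6 in CFPAC-1, which was 1.78 as fitted (limma unadjusted p = 0.00397) and 2.23 in reads. In bulk RNA of this kind, fewer cells that express a gene and less of its RNA in each cell cannot be told apart. At the adjusted p, the rises of FUT1, FUT2 and FUT3 in SW1990 and of FUT3 and FUT4 in CFPAC-1 were called under every alternative of pseudocount, filter, scaling, model and left-out library that was tried. So was that of FUT6 in SW1990, except that a filter at a mean of 1 RPKM removed FUT6 and left it untested. The other calls were lost under some of these alternatives.

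**Figure D2:**
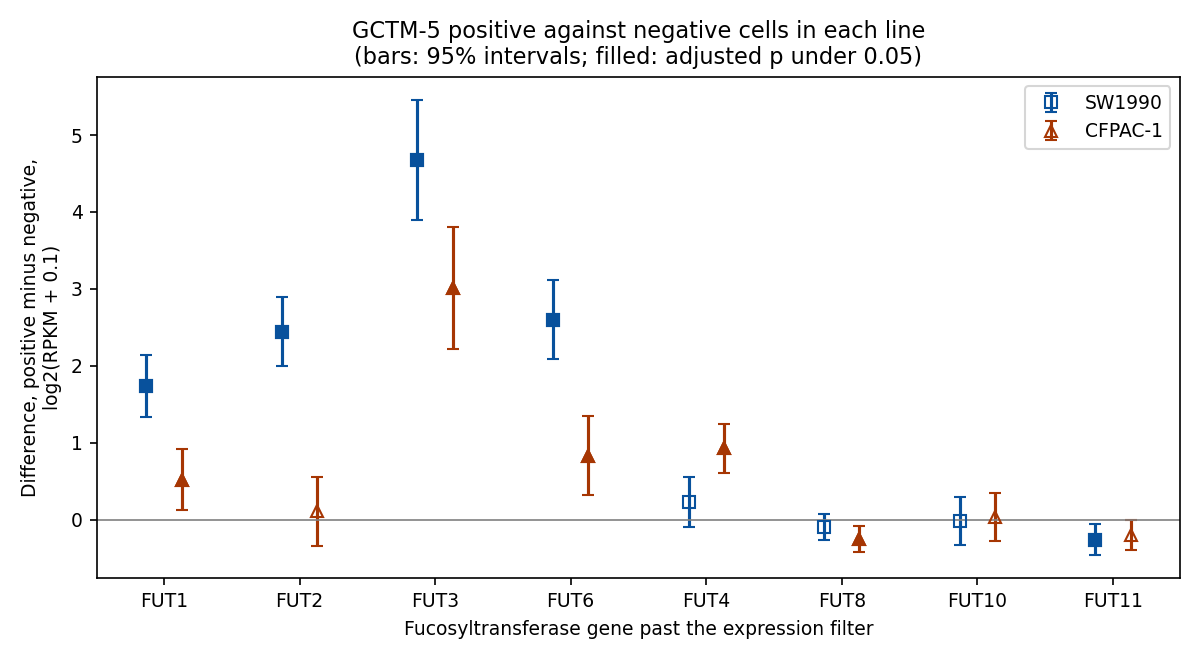
Difference between GCTM-5 positive and negative cells in log2(RPKM + 0.1), on the vertical axis, for the 8 members past the filter in SW1990 (squares) and CFPAC-1 (triangles). Bars are 95% intervals from limma and filled symbols have an adjusted p under 0.05. FUT1, FUT2, FUT3 and FUT6 lie above 0 in SW1990 with intervals that stay clear of it, and FUT2 in CFPAC-1 lies at 0.11.

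FUT1, the enzyme of the red-cell H antigen, is on the minus strand at chr19:49251268-49258647 (GRCh37). It stood at 2.46, 2.30 and 2.86 RPKM in the negative SW1990 replicates and at 7.31, 9.03 and 9.92 RPKM in the positive ones. The lowest positive library was thus far above the highest negative one. The change was 1.74 ± 0.18 (SE) on the log2 scale, a 3.34-fold rise (limma adjusted p = 2.05e-05). In CFPAC-1 FUT1 stood at 1.94, 3.10 and 2.91 RPKM in negative and 3.79, 3.86 and 3.66 RPKM in positive libraries. These groups did not overlap either, but they lay close together. The rise of 0.52 ± 0.18 was called (limma adjusted p = 0.0412), and leaving out any of 7 of the 12 libraries lost the call. These were CFPAC-1 negative 1 and 3, all 3 CFPAC-1 positive libraries, SW1990 negative 1 and SW1990 positive 2. Without CFPAC-1 negative 1, the lowest library, the change was 0.32 (limma adjusted p = 0.16). The call was also lost without the filter, with median centring, under quantile normalization and with only the groups compared (limma adjusted p = 0.0522, 0.0903, 0.0735 and 0.0849).

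FUT2, the secretor gene, which makes H antigen in epithelia and their secretions, is at chr19:49199228-49209208 on the plus strand. It stood at 1.41, 1.39 and 1.70 RPKM in negative SW1990 and at 6.50, 12.2 and 7.90 RPKM in positive SW1990. All positive libraries were above all negative ones, and SW1990 positive 2 was the highest. The rise of 2.44 ± 0.21 on the log2 scale was 5.44-fold (limma adjusted p = 3.99e-06). In CFPAC-1 FUT2 stood at 3.33, 4.32 and 3.71 RPKM in negative and 3.86, 3.92 and 4.47 RPKM in positive libraries, and the groups overlapped. The difference there was 0.11, with a 95% interval from -0.34 to 0.56 (limma adjusted p = 0.714). The change of FUT2 in SW1990 exceeded that in CFPAC-1 by 2.33 ± 0.29 (limma adjusted p = 0.000158), and that of FUT1 by 1.22 ± 0.26 (limma adjusted p = 0.00452). In these libraries the summed RPKM of both alpha-1,2 enzymes was 4.04 ± 0.46 in negative and 17.6 ± 3.73 in positive SW1990, against 6.44 ± 1.09 and 7.85 ± 0.246 in CFPAC-1. FUT2 made up 37.1% ± 0.603 of that sum in negative and 49.6% ± 6.94 in positive SW1990, and 59.2% ± 3.69 and 51.9% ± 2.62 in negative and positive CFPAC-1.

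FUT3, FUT5 and FUT6 form a cluster on the minus strand of chromosome 19, where 3166 bases separate FUT6 (chr19:5830419-5839733) from FUT3 (chr19:5842899-5851482), and 14355 bases FUT3 from FUT5 (chr19:5865837-5870551). Each is coded by a single exon, and the coding sequences are near copies of each other. FUT3 matched FUT5 at 93.9% and FUT6 at 90.9% of aligned coding bases, and FUT5 matched FUT6 at 93.3%. Of all stretches of 100 bases in the annotated exons, 10.3% of those of FUT3, 13.9% of those of FUT5 and 6.14% of those of FUT6 also occurred in another of the 3. The sources used here do not state how reads that match several genes were counted, so reads from these stretches may have been assigned to either gene. The coding stretch below is the window of 90 bases without gaps in which the 3 genes differ most, given 5′ to 3′ from GRCh37 with capitals at the 29 positions that differ among them. FUT5 differs there from FUT3 at 20 positions and FUT6 from FUT3 at 24, so that reads over such stretches tell the genes apart.
FUT3 (chr19:5844412-5844501, minus strand): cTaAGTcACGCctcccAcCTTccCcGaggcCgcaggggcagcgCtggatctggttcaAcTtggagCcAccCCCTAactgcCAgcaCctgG
FUT5 (chr19:5867259-5867348, minus strand): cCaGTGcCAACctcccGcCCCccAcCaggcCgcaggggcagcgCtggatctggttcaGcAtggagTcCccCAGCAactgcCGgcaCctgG
FUT6 (chr19:5832143-5832232, minus strand): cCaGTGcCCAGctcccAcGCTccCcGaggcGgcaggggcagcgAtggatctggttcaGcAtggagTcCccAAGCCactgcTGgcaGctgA

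FUT3, the Lewis enzyme, had the largest fitted change of the tested members in both lines on the log2(RPKM + 0.1) scale. In SW1990 this order depended on the scale, since FUT6 came out above FUT3 with a pseudocount of 0.01 (5.17 against 4.81) and with voom on recovered reads (5.42 against 4.86). It stood at 1.13, 0.514 and 1.75 RPKM in negative and 19.8, 35.5 and 32.4 RPKM in positive SW1990 libraries. In CFPAC-1 it stood at 0.436, 0.547 and 0.387 RPKM in negative and 4.93, 5.26 and 3.18 RPKM in positive libraries. The groups were far apart in each line, and the level reached in positive SW1990 was not reached by any CFPAC-1 library. The change was 4.67 ± 0.36 on the log2 scale in SW1990 (limma adjusted p = 1.98e-06) and 3.01 ± 0.36 in CFPAC-1 (limma adjusted p = 0.000121). The change in SW1990 was larger by 1.66 ± 0.51 (limma adjusted p = 0.0308), a difference whose call was lost without CFPAC-1 negative 1 or 2, CFPAC-1 positive 3 or SW1990 positive 2 or 3 (limma adjusted p up to 0.075), with a pseudocount of 0.01 (limma adjusted p = 0.0596) and with voom (limma adjusted p = 0.102). With the RPKM of FUT3, FUT5 and FUT6 added into 1 value, the changes were 4.67 ± 0.37 and 2.35 ± 0.37 (limma adjusted p = 2.34e-06 and 0.000603), and their difference was 2.32 ± 0.52 (limma adjusted p = 0.00647). This sum still depends in part on how reads were shared among these genes, as their recovered lengths differ (2590, 1987 and 3137 bases). Reads left out or counted more than once would also change it.

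FUT6, an alpha-1,3-fucosyltransferase that can act on sialylated chains, was seen at low depth. Its reads numbered 2, 0 and 0 in negative and 29, 31 and 36 in positive SW1990 libraries. The positive libraries stood at 0.476, 0.582 and 0.648 RPKM, and the negative ones were under the level of 3 reads, the limit that a count of 0 allows. Per library read, FUT6 was 54.6 times as frequent in positive cells, with an exact 95% interval from 14.7 to 457 that covers counting error only. The fitted rise was 2.60 ± 0.23 (limma adjusted p = 6.63e-06), a size that depends on the 0.1 added to each value. In CFPAC-1 FUT6 had 10, 12 and 8 reads in negative and 28, 20 and 12 reads in positive libraries, or 0.164, 0.175 and 0.128 RPKM against 0.341, 0.340 and 0.384 RPKM. The groups did not overlap in RPKM. The rise of 0.83 ± 0.23 was called (limma adjusted p = 0.0158), but not without CFPAC-1 negative 3 (limma adjusted p = 0.0606), with a pseudocount of 0.01 (limma adjusted p = 0.123) or with the replicate block within each line (limma adjusted p = 0.0526), and a filter at a mean of 1 RPKM left it untested. The reads were 2.23 times as frequent with an exact 95% interval from 1.42 to 3.58. The change in SW1990 exceeded that in CFPAC-1 by 1.77 ± 0.33 (limma adjusted p = 0.0022).

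FUT5, an alpha-1,3-fucosyltransferase of the same cluster, went the other way in CFPAC-1. It had 16, 11 and 4 reads in the negative CFPAC-1 libraries, or 0.413, 0.253 and 0.101 RPKM, and 0, 3 and 0 reads in the positive ones. SW1990 held 2, 0 and 0 reads in negative and 2, 0 and 0 reads in positive libraries, which is at the limit of the depth in both groups. FUT5 reads were 9.26 times as frequent in negative as in positive CFPAC-1 cells, with an exact 95% interval from 2.89 to 47.3 for counting error only. They were also 15.6 times as frequent in negative CFPAC-1 as in negative SW1990 cells, with an interval from 3.96 to 134. When the filter was dropped and 19654 genes were fitted, FUT5 fell by 1.45 on the log2 scale in positive CFPAC-1 cells (SE 0.35, limma adjusted p = 0.0106). The difference of its changes between lines was 1.45 ± 0.50 and was not called (limma adjusted p = 0.0597). The counts of the 3 neighbouring genes did not keep 1 ratio over the groups. For each 100 reads of FUT3 there were 1.17 of FUT6 in negative SW1990, 2.37 in positive SW1990, 41.1 in negative CFPAC-1 and 8.93 in positive CFPAC-1, and 1.17, 0.0494, 42.5 and 0.446 of FUT5.

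FUT4, the enzyme of the Lewis X antigen of myeloid cells, lies at chr11:94277087-94283061. It stood at 11.5, 9.65 and 10.3 RPKM in negative and 15.3, 10.6 and 11.5 RPKM in positive SW1990 libraries, and the groups overlapped. The difference was 0.23, with a 95% interval from -0.09 to 0.55 (limma adjusted p = 0.276). In CFPAC-1 FUT4 stood at 11.8, 12.7 and 11.0 RPKM in negative and at 25.4, 23.5 and 19.4 RPKM in positive libraries, with every positive library well above every negative one. This was a rise of 0.93 ± 0.15, or 1.90-fold (limma adjusted p = 0.000591). FUT4 was the only tested member whose change in SW1990 was below that in CFPAC-1 by the test of the difference, at -0.70 ± 0.21 (limma adjusted p = 0.0257). That call was lost when libraries were centred on their medians (-0.55, limma adjusted p = 0.0735), under quantile normalization, and without CFPAC-1 negative 3, CFPAC-1 positive 1, SW1990 negative 1, SW1990 positive 2 or SW1990 positive 3. The annotated span of FUT4 overlaps on the same strand with that of PIWIL4, which had a group mean of at most 1.53 RPKM. How reads in that overlap were counted is not given in the sources used here.

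FUT7, which makes sialyl Lewis X on leukocytes, was at the limit of the depth in all groups. Its reads numbered 3, 0 and 0 in negative SW1990, 0, 2 and 0 in positive SW1990, 2, 0 and 0 in negative CFPAC-1 and 0, 1 and 0 in positive CFPAC-1. A count of 0 allows up to 3 reads, which is 0.0477 RPKM in the deepest library and 0.125 RPKM in the shallowest, and no difference was detectable at this depth.

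The make-up of the alpha-1,3 and alpha-1,3/4 group therefore differed between populations, since FUT3 and FUT4 made up nearly all of it. Summed over FUT3, FUT4, FUT5, FUT6 and FUT7, it went from 11.7 RPKM ± 1.35 in negative to 42.3 ± 5.86 in positive SW1990, and from 12.7 ± 1.03 to 27.6 ± 4.08 in CFPAC-1. In SW1990 FUT3 was 9.47% ± 4.77 of the sum in negative and 68.2% ± 10.9 in positive cells, while FUT4 went from 90.2% ± 4.74 to 30.4% ± 10.9. In CFPAC-1 FUT3 went from 3.57% ± 0.365 to 16.0% ± 2.11, and FUT4 remained the larger part with 93.1% ± 1.49 and 82.6% ± 2.03. FUT4 added 10.9 RPKM to the mean sum of positive over negative CFPAC-1 cells and FUT3 added 4.00, whereas in SW1990 FUT3 added 28.1 and FUT4 added 1.96. FUT9 was not among the members and is not in these sums. Its highest group mean was 0.0951 RPKM, in positive CFPAC-1.

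**Figure D3:**
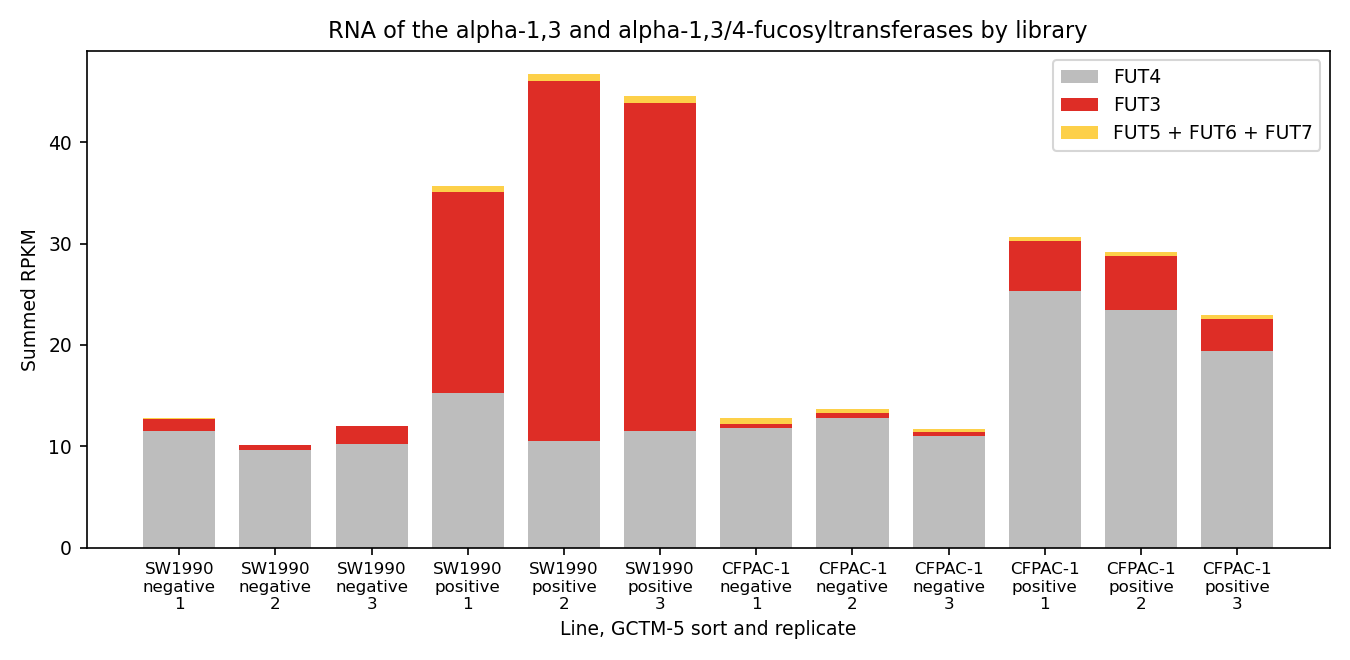
Summed RPKM, on the vertical axis from 0, of FUT4 (grey), FUT3 (red) and FUT5, FUT6 and FUT7 together (yellow) in each of the 12 libraries. Positive SW1990 libraries reach 35.6 to 46.7 RPKM and are mostly FUT3, positive CFPAC-1 libraries reach 23.0 to 30.6 RPKM and are mostly FUT4, and negative libraries of both lines stay between 10.2 and 13.7 RPKM.

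FUT8, the core fucosyltransferase, lies at chr14:65877310-66210839. It stood at 64.4, 71.8 and 71.6 RPKM in negative and 61.8, 67.9 and 64.0 RPKM in positive SW1990 libraries, which overlapped. The difference was -0.10, with a 95% interval from -0.27 to 0.07 (limma adjusted p = 0.38). In CFPAC-1 it stood at 112.3, 107.4 and 108.8 RPKM in negative and 87.9, 90.6 and 97.9 RPKM in positive libraries, all lower. FUT8 fell by 0.25 on the log2 scale there (SE 0.08, limma adjusted p = 0.024), and the call was lost without any 1 of the 3 CFPAC-1 negative libraries or CFPAC-1 positive 1 or 2 (limma adjusted p up to 0.0811) and with only the groups compared (limma adjusted p = 0.0549). The changes in the 2 lines differed by 0.15 ± 0.11 and this was not called (limma adjusted p = 0.336). Of the RNA of all members, FUT8 was 69.4% ± 2.62 in negative and 47.0% ± 2.39 in positive SW1990, and 74.2% ± 1.20 and 63.8% ± 2.99 in CFPAC-1.

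FUT10, at chr8:33228342-33330664, differed between the lines and not detectably between the sorted populations. It stood at 5.61, 5.68 and 6.61 RPKM in negative and 5.89, 6.03 and 5.71 RPKM in positive SW1990, and at 2.79, 3.08 and 2.23 RPKM in negative and 2.47, 2.78 and 3.03 RPKM in positive CFPAC-1. Positive and negative libraries overlapped in each line, and every SW1990 library was above every CFPAC-1 library. The difference between positive and negative cells was -0.02 (95% interval -0.33 to 0.29, limma adjusted p = 0.955) in SW1990 and 0.03 (-0.28 to 0.35, limma adjusted p = 0.882) in CFPAC-1, and its sign turned with the scaling of the libraries. FUT11, at chr10:75532034-75540009, stood at 9.45, 8.13 and 8.97 RPKM in negative and 7.05, 7.54 and 7.50 RPKM in positive SW1990, and at 15.7, 15.4 and 17.4 RPKM in negative and 14.3, 14.1 and 13.7 RPKM in positive CFPAC-1. Positive libraries were below negative ones in both lines by a small margin. FUT11 fell by 0.26 in SW1990 (SE 0.09, limma adjusted p = 0.0498), just inside the threshold. The call was lost in 19 of 23 alternatives and with 10 of the 12 libraries left out in turn, all but CFPAC-1 positive 3 and SW1990 negative 2, with an adjusted p of up to 0.156. In CFPAC-1 the difference was -0.20 ± 0.09 and was not called (limma adjusted p = 0.0972). With median centring or quantile normalization it was called there as a fall (limma adjusted p as low as 0.0143).

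The test of the difference between lines called 5 of the 8 members, with a larger change in SW1990 for FUT1, FUT2, FUT3 and FUT6 and a smaller one for FUT4. Of all genes tested, 9.16% had a larger and 17.8% a smaller change in SW1990, or 26.9% in either direction, and over 2-fold with an unadjusted p under 0.01 it was 4 members and 14.2% of genes. The median difference over all genes was -0.15 on the log2 scale, and centring each library on its own median brought it to 0.00. The same centring changed the share of called genes that were higher from 61.1% to 47.8% in CFPAC-1 and from 34.0% to 50% for the difference between lines. Under it FUT1, FUT2, FUT3 and FUT6 were still called as changing more in SW1990, and FUT4 no longer as changing less.

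Between the lines themselves, negative SW1990 cells had 2 members higher and 4 lower than negative CFPAC-1 cells, where 40.7% of all genes were higher and 28.2% lower, or 68.9% in either direction. Over 2-fold with an unadjusted p under 0.01 it was 3 members and 36.9% of genes. FUT10 was higher by 1.12 ± 0.14 (limma adjusted p = 1.97e-05) and FUT3 by 1.01 ± 0.36 (limma adjusted p = 0.0247). FUT3 overlapped between the groups, and its call was lost without CFPAC-1 negative 1 or 3 or SW1990 negative 1 or 3, with a pseudocount of 1, median centring or voom (limma adjusted p = 0.086, 0.0514 and 0.135), and on the summed cluster (0.26, limma adjusted p = 0.544). FUT2 was lower in negative SW1990 by 2.43-fold (limma adjusted p = 0.000139), FUT6 by 2.33-fold on the fitted scale (limma adjusted p = 0.000547), FUT11 by 1.82-fold (limma adjusted p = 3.72e-06) and FUT8 by 1.58-fold (limma adjusted p = 8.84e-06). Among positive cells, SW1990 had 4 members higher and 3 lower, where 32.9% of all genes were higher and 29.3% lower, or 62.3% in either direction. Over 2-fold with an unadjusted p under 0.01 it was 4 members and 28.5% of genes. FUT2 had turned to be higher in SW1990, by 2.08-fold (limma adjusted p = 0.000769), as were FUT1 by 2.27-fold, FUT3 by 6.39-fold and FUT10 by 2.10-fold (limma adjusted p at most 0.000126). FUT4 was lower in positive SW1990 by 1.83-fold, FUT8 by 1.43-fold and FUT11 by 1.89-fold (limma adjusted p at most 0.000227).

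Upstream sequences are shown for the 4 members that rose together in SW1990. RefSeq start sites on GRCh38.p14 were at hand for 7 of the 10 members. Windows of 250 bases before the start were searched on both strands for 4 motifs, chosen after the sequences and the values had been seen. The first was the E-box CAGGTG. It was found at least 1 time, as such or as CACCTG on the other strand, in 17.5% of 35116 such windows of all genes. The share of windows with 2 matches was not counted. It occurred 2 times before the first listed start of FUT1, 199 and 69 bases upstream, 2 times before FUT2, at 143 and 43 bases, and 2 times before FUT3, at 77 and 67 bases. It was not found before FUT6, FUT4 or FUT7, nor before the other start of FUT1, and 1 of the 3 starts of FUT8 had 1 match. The GC-box GGGCGG was in 42.6% of all windows, among them those of FUT2, FUT3, FUT7, 1 start of FUT1 and 1 of FUT8. The TATA-box TATAAA was in 10.7% of all windows and in none of those of the members. The grainyhead-type motif AACCGGTT was in 0.117% of all windows and likewise in none of these. No match overlapped another motif's. These matches are a description of the letters and not of binding. The windows follow on GRCh38.p14, 5′ to 3′ in the direction of each gene, with the E-box in capitals on either strand. For FUT1 only the window of the first listed start is shown.
FUT1 (chr19:48755359-48755608, minus strand): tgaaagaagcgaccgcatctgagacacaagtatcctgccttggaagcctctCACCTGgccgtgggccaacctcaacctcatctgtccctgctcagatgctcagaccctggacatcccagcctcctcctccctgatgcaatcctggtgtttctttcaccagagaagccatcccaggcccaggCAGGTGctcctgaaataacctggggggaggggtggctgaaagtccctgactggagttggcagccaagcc
FUT2 (chr19:48695721-48695970, plus strand): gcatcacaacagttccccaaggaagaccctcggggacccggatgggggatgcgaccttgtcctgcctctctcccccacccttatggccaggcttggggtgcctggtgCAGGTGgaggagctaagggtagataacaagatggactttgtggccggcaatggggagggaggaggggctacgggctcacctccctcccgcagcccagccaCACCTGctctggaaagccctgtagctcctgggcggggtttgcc
FUT3 (chr19:5851450-5851699, minus strand): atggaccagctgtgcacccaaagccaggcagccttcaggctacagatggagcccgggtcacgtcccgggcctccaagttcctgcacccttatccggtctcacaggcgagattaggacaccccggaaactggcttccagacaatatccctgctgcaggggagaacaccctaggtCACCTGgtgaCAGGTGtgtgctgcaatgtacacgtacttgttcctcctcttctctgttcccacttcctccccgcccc
FUT6 (chr19:5839703-5839952, minus strand): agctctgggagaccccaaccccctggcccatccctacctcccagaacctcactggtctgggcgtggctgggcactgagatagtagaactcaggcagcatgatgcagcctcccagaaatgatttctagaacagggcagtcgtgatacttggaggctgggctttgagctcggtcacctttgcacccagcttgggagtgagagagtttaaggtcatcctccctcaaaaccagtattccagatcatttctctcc

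The RNA of genes that make and carry GDP-fucose was looked at next. Of 8 genes listed for this supply, 6 were in the table under the symbols used and all 6 passed the filter. TSTA3, which makes GDP-fucose from the product of GMDS, rose in both lines. Negative and positive SW1990 cells had 20.9 RPKM ± 1.98 and 29.4 ± 3.91 (0.49 ± 0.14, limma adjusted p = 0.0191), and those of CFPAC-1 had 10.7 ± 0.224 and 15.4 ± 2.76 (0.51 ± 0.14, limma adjusted p = 0.013). GMDS, the first enzyme of that route, stood at 1.23 RPKM ± 0.229 and 2.40 ± 0.208 in negative and positive SW1990 and at 5.15 ± 0.723 and 10.0 ± 7.44 in CFPAC-1, and was not called (limma adjusted p = 0.0828 and 0.147). SLC35C1, the Golgi carrier of GDP-fucose, fell by 0.57 in CFPAC-1 (SE 0.15, limma adjusted p = 0.0118) and differed by -0.21 ± 0.15 in SW1990 (limma adjusted p = 0.35). FUK and FPGT, which salvage free fucose, and the transporter SLC35C2 had differences between -0.35 and 0.27 in the 2 lines, none of them called.

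B3GNT3 and B3GALT5, which build the chains on which Lewis antigens are made, changed in opposite directions in the 2 lines. Of 5 genes listed for the type 1 chain, the backbone of Lewis a, 3 passed the filter, and 2 of them rose in SW1990 and fell in CFPAC-1. Of all genes tested, 11.3% rose in SW1990 and 14.2% fell in CFPAC-1. B3GNT3, which extends chains with N-acetylglucosamine, stood at 5.42 RPKM ± 1.50 in negative and 59.1 ± 8.53 in positive SW1990 (3.45 ± 0.20, limma adjusted p = 2.52e-07), and at 139.9 ± 11.7 and 95.1 ± 21.2 in CFPAC-1 (-0.58 ± 0.20, limma adjusted p = 0.0386). B3GALT5, which adds the galactose of type 1 chains, stood at 2.40 ± 0.374 and 6.05 ± 0.269 RPKM in SW1990 (1.31 ± 0.12, limma adjusted p = 7.26e-06), and at 43.1 ± 4.00 and 25.4 ± 2.03 RPKM in CFPAC-1 (-0.76 ± 0.12, limma adjusted p = 0.0006). The difference between lines was called for both (4.03 ± 0.28 and 2.07 ± 0.17, limma adjusted p = 5.25e-06 and 9.74e-06). Both were nevertheless higher in CFPAC-1 than in SW1990 in either population, unlike FUT3. Of the 5 type 2 chain galactosyltransferases, which serve Lewis X, 2 rose in SW1990 (B4GALT3 and B4GALT4), where 11.3% of all genes rose. In CFPAC-1 the lowest adjusted p among the 5 was that of B4GALT5 (-0.48 ± 0.21, limma adjusted p = 0.0947).

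Some, but not all, of the alpha-2,3-sialyltransferases place the sialic acid of the sialylated Lewis antigens. Of the 6 listed, 1 rose and 3 fell in SW1990, where 11.3% of all genes rose and 16.9% fell. In CFPAC-1 2 of them fell, where 14.2% of all genes fell. ST3GAL2 fell from 18.4 RPKM ± 1.08 to 7.83 ± 1.00 in SW1990 (limma adjusted p = 6.66e-06), and ST3GAL5, the ganglioside GM3 synthase, from 15.4 ± 2.52 to 6.23 ± 1.91 (limma adjusted p = 0.000659). ST3GAL3 was lower in positive cells of both lines. It differed by -0.81 ± 0.18 in SW1990 (limma adjusted p = 0.00472) and by -0.57 ± 0.18 in CFPAC-1 (limma adjusted p = 0.0264). ST3GAL4 and ST3GAL6 were not called in either line (limma adjusted p of at least 0.0743). ST6GAL1, which competes by adding alpha-2,6-linked sialic acid to N-glycans, fell by 2.67 in SW1990 from 3.41 ± 0.389 to 0.459 ± 0.136 RPKM (limma adjusted p = 2.07e-05), and differed by -0.12 ± 0.28 in CFPAC-1 (limma adjusted p = 0.776). B4GALNT3, which makes the LacdiNAc unit, rose from 0.250 ± 0.0542 to 1.76 ± 0.546 RPKM in SW1990 (limma adjusted p = 0.000166), and in CFPAC-1 stood at 1.96 ± 0.267 and 1.12 ± 0.599 RPKM (limma adjusted p = 0.0584). Around core fucosylation, 1 of 8 N-glycan enzymes rose in SW1990 (MGAT3) and 2 in CFPAC-1 (MGAT2 and MGAT5). Of all genes, 11.3% rose in SW1990 and 22.3% in CFPAC-1. Of the protein O-fucosyltransferases outside the family, neither was called in SW1990, while in CFPAC-1 POFUT1 rose by 0.48 ± 0.09 (limma adjusted p = 0.00221) and POFUT2 fell by 0.84 (SE 0.16, limma adjusted p = 0.00231). Of the alpha-fucosidases FUCA1 and FUCA2, FUCA2 rose in CFPAC-1 by 0.30 ± 0.07 (limma adjusted p = 0.00892).

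**Figure D4:**
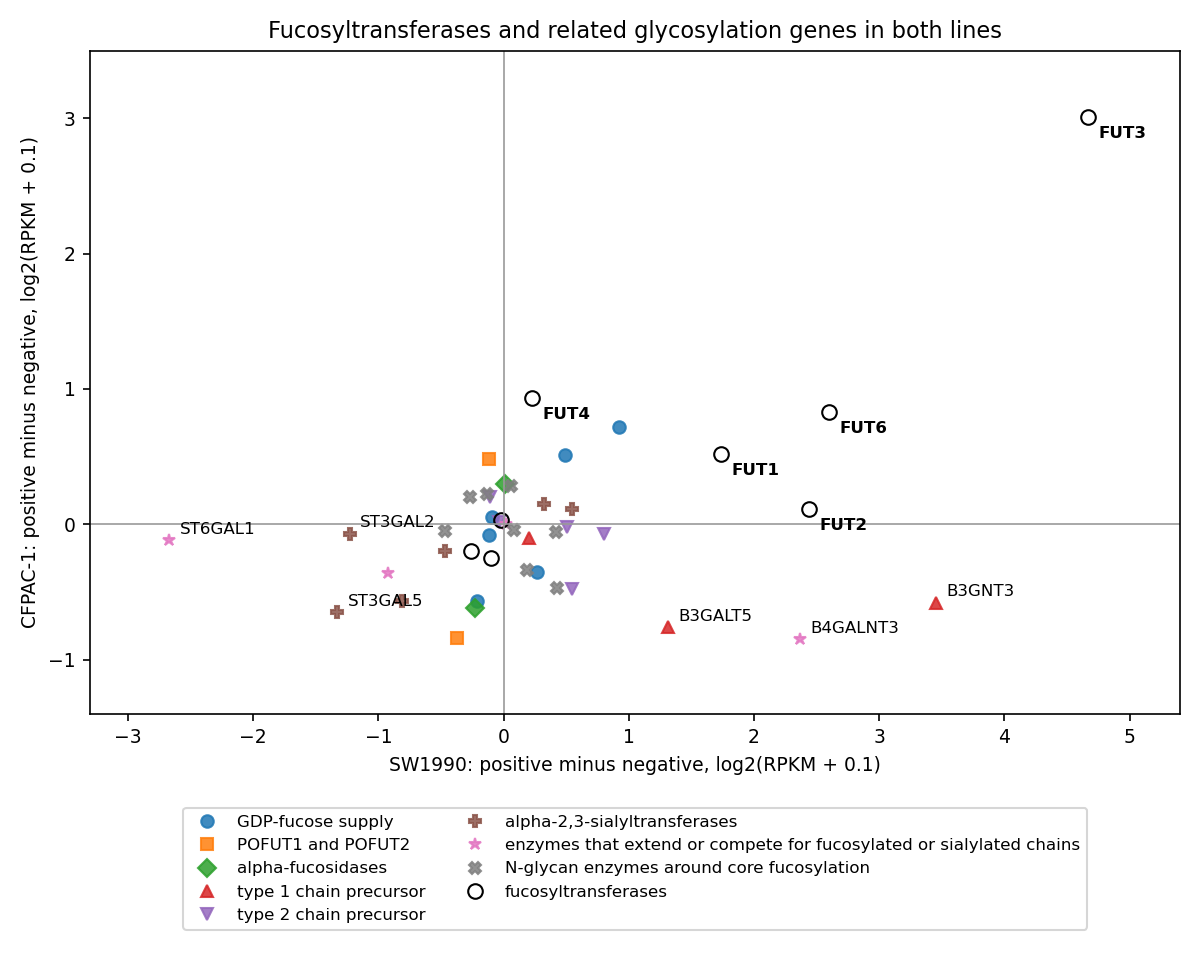
Difference between GCTM-5 positive and negative cells in log2(RPKM + 0.1), in SW1990 on the horizontal and in CFPAC-1 on the vertical axis, for fucosyltransferases (open circles) and genes of 8 related lists past the filter. On this scale FUT3 is highest in both lines, at 4.67 and 3.01, and B3GNT3 and B3GALT5 lie to the right of 0 and below it.

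Genes next to the members were looked at in the same way. Within 50 kb there were 31 other genes, of which 29 passed the filter. Of these, 5 rose and 4 fell in SW1990, where 11.3% of all genes rose and 16.9% fell. In CFPAC-1 5 rose and 3 fell, where 22.3% of all genes rose and 14.2% fell. In SW1990 CAPS, ENTPD2, SAPCD2, CHCHD1 and CAMK2G rose, and CA11, PIWIL4, PTGDS and UAP1L1 fell. In CFPAC-1 DUS3L, SAPCD2, UAP1L1, TTI2 and MAK16 rose, and CA11, NTN5 and NDST2 fell. CAPS, 41799 bases from FUT5, changed by 1.25 in SW1990 (limma adjusted p = 0.00778). DUS3L, 39183 bases from FUT6, changed by 1.14 in CFPAC-1 (limma adjusted p = 0.00809). CA11, near FUT2, changed by -1.14 and -1.25 (limma adjusted p = 0.0292 and 0.0156). NRTN, a growth factor gene 2084 bases from FUT6 on the opposite strand, differed by 0.71 in SW1990 and 0.57 in CFPAC-1 and was not called (limma adjusted p = 0.168 and 0.229). FUT1 and FUT2 are 42060 bases apart on opposite strands, and MAMSTR, RASIP1 and IZUMO1 between them were not called in either line (limma adjusted p of at least 0.0712).

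The genes whose pattern over the 12 libraries was most like that of a member were found by the root mean square difference of centred log2(RPKM + 0.1) values among 13267 genes. For FUT1 they were P2RY6, CAPN1 and XDH (0.20 to 0.24), for FUT2 C1orf116, WNT10A and SLC45A3 (0.22 to 0.26), and for FUT3 UPK2, ZBED2 and IVL (0.66 to 0.74). UPK2, a uroplakin of the urothelial surface, had group means of 1.87 and 50.2 RPKM in negative and positive SW1990, and of 2.25 and 6.26 RPKM in CFPAC-1. For FUT4 they were SMC1A, GSTCD and CMC2 (each 0.13), for FUT8 ITGA3, MANBAL and SRP14 (0.07 to 0.08), for FUT10 KEAP1, ZNF768 and PPP2R4 (0.12 to 0.13) and for FUT11 ZMYM3, CGGBP1 and GPBP1L1 (0.07 to 0.09). The likeness of FUT3 to its nearest genes was looser than that of the other members. Its own values also spread more widely (SD 2.31 against 0.33 to 0.93), and the differences were not scaled to that spread.

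Markers of cell types moved with the SW1990 populations. Of all genes tested, 11.3% rose and 16.9% fell in SW1990, and 22.3% rose and 14.2% fell in CFPAC-1. Of 8 carcinoma epithelium genes, 7 rose in positive SW1990 cells, and their summed level was 1680 to 2000 RPKM in negative and 4860 to 5200 RPKM in positive libraries. In CFPAC-1 3 rose and 2 fell, with sums of 6870 to 7890 and 7470 to 9180 RPKM. Of 8 fibroblast genes, 3 passed the filter and all 3 fell in positive SW1990, where the sum went from 12.7 to 22.6 RPKM in negative to 3.90 to 4.88 RPKM in positive libraries. It was 1.42 to 2.40 RPKM in CFPAC-1 libraries, and THY1 was at 0 in all groups. LUM was the largest part of the sum in negative SW1990, at 13.2 RPKM ± 5.28, and stood at 2.43 ± 0.603 in positive SW1990. Of leukocyte markers, the monocyte and macrophage genes CD14 and CD68 fell in SW1990. CD14 had 1.47 RPKM ± 0.507 in negative and 0.287 ± 0.0381 in positive cells (limma adjusted p = 0.000137), and CD68 had 42.0 ± 7.27 and 21.7 ± 9.56 (limma adjusted p = 0.00883). CD3E, of T cells, was at 0 in both. In CFPAC-1 CD14 was lower in positive cells (9.23 ± 0.535 and 3.19 ± 0.966 RPKM, limma adjusted p = 0.000977), and CD68 differed by 0.19 ± 0.25 (limma adjusted p = 0.588). Of 5 endothelial genes, 3 passed and CDH5 fell in SW1990, where the sum went from 14.9 to 18.9 RPKM in negative to 1.47 to 2.05 RPKM in positive libraries, and in CFPAC-1, where sums were 0.751 to 1.49 RPKM, the lowest limma adjusted p of the 3 was 0.178. Most of the sum in SW1990 was CDH5, at 15.6 RPKM ± 1.83 in negative and 1.33 ± 0.255 in positive cells. PECAM1 was not called there (limma adjusted p = 0.0886). The part of these differences in the fucosyltransferase results in SW1990 was not tested.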

How the data were processed

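RNA-seq values of 12 libraries, 3 in each of 4 groups of sorted cells, were used. Polyadenylated RNA was sequenced. The labels name a strand-specific library kit (SureSelect) and the study's methods another kit (TruSeq RNA), so whether the reads keep the strand is not settled. Per the study's methods, reads were aligned to hg19/GRCh37 with QuasR. The deposited RPKM values were made by the authors from read counts normalised by library size and gene length. The annotation, the use of strand and the treatment of reads that match several genes are not given in the sources used here, which bears on FUT3, FUT5, FUT6 and FUT4. The 12 columns carried the sample titles, and 0 columns of other samples were present.

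Whole reads and library totals were recovered from the RPKM values, to within 0.01 of a read, for all 19654 genes above 0. For a gene with reads in few libraries, the recovered numbers may all be short by the same factor. Intervals of read ratios are exact and cover counting error only. Replicates of a group differed by more than sampling noise (mean chi-square per gene of 6.17 or more), so each counted as 1 sample. Members were the 10 fucosyltransferases, and the members and the lists of related genes and cell markers were chosen with earlier results of these data known. Genes whose mean RPKM reached 0.1 were tested on log2(RPKM + 0.1) with limma 3.58.1 in R 4.3.3 (4 group means, eBayes with trend, 2-sided, Benjamini-Hochberg adjustment over 16236 genes). The study's methods name another tool, which needs counts and was not used. The steps were tested on simulated data. Alternatives were another pseudocount, filter, scaling, variance prior or threshold, only the groups compared, voom on recovered reads, a replicate block, the summed FUT3 cluster and each library left out. Besides the members, the text names every GDP-fucose supply gene present and the 3 genes most like a member. It also names called genes of the other pathway lists that changed over 2-fold in a line. Of the genes within 50 kb, it names those called in a line, NRTN and those between FUT1 and FUT2. The B4GALT, MGAT, POFUT and FUCA genes, ST3GAL3, ST3GAL4, ST3GAL6 and the cell markers were named after their values were seen. The counts and sums over the leukocyte list are not reported here.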

Additional observations from a re-analysis of the deposited data

Results flagged for a closer look

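For 5 of the 8 members tested, the change between GCTM-5 positive and negative cells differed between the lines by the test of the difference itself (limma on log2(RPKM + 0.1), adjusted over all genes). The change in SW1990 minus that in CFPAC-1 was 2.33 for FUT2 (adjusted p = 0.000158), 1.77 for FUT6 (adjusted p = 0.0022), 1.66 for FUT3 (adjusted p = 0.0308) and 1.22 for FUT1 (adjusted p = 0.00452). It was -0.70 for FUT4 (adjusted p = 0.0257), which rose in CFPAC-1 and was not called in SW1990. For FUT3, FUT5 and FUT6 added into 1 value it was 2.32 (adjusted p = 0.00647). Of all genes, 26.9% passed the same test.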

How the results depend on the processing

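Of 901 values of single members under an alternative, 812 kept their direction and side of the threshold, 61 lost and 9 gained the call, and 19 changed sign. The 19 that changed sign were at most 0.26 in size and were not called under the alternative that turned them.

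The count of members that fell in SW1990 (1, FUT11) was 0 with a pseudocount of 1, a mean RPKM of at least 1, median centring, quantile normalization, no variance trend, only the groups compared, voom, either replicate block (within each line or common to both) or the thresholds of the study, and 0 to 1 with libraries left out. In CFPAC-1 the members that rose (4) were 1 at those thresholds and 2 to 4 with libraries left out. They were 3, without FUT1, without the filter, with median centring, quantile normalization or only the groups compared, and 3, without FUT6, with a pseudocount of 0.01, a mean RPKM of at least 1 or the replicate block within each line. The member that fell there (1, FUT8) became 2 without the filter, by FUT5, and 2 with median centring or quantile normalization, by FUT11. The count was 0 with only the groups compared or at those thresholds, and 0 to 1 with libraries left out. Members changing less in SW1990 (1, FUT4) were 0 with median centring, quantile normalization or those thresholds, and 0 to 1 with libraries left out. Negative SW1990 had 2 members above negative CFPAC-1, and 1 with a pseudocount of 1, median centring, voom or those thresholds, and 1 to 2 with libraries left out. Members below numbered 2 at those thresholds, and 0 among positive cells.

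FUT10 turned to 0.03 in SW1990, to -0.07 and -0.04 in CFPAC-1 and to 0.10 and 0.07 for the difference of changes under median centring and quantile normalization, and ranged over -0.06 to 0.06, -0.09 to 0.13 and -0.15 to 0.07 with libraries left out. The difference for FUT11 turned to 0.09 and 0.10 under these scalings, FUT1 between the negative groups ranged from -0.24 to 0.09 with libraries left out, and FUT6 there turned to 0.26 on the summed cluster. The cause was not tested. The study's methods speak of repeated sorts, so positive and negative libraries may be paired by sort, but which belong together is not stated. Deviations of same-numbered positive and negative libraries had correlations of 0.185, 0.016 and 0.116 in SW1990, and -0.02, 0.001 and -0.059 in CFPAC-1. Those of differently numbered libraries ran from -0.254 to 0.162 in SW1990 and from -0.033 to 0.042 in CFPAC-1. Same-numbered libraries thus did not all deviate together, and the numbers were not taken as pairs. So few correlations cannot settle whether they are. With the replicate block within each line 2 calls on members were lost, FUT6 in CFPAC-1 (0.83, limma adjusted p = 0.0526) and FUT11 in SW1990 (-0.26, limma adjusted p = 0.107). Depth limits FUT5, FUT6 and FUT7, which held at most 36 reads in any library.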
